A study of Mus musculus with 25 samples.

Results

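Cortical neurons that lacked REST were compared 3 days after spinal cord injury (SCI) with neurons of sham-operated mice of the same genotype. The comparison rests on 7 of the 25 libraries of the series, 4 from day 3 (replicates 9, 15, 20 and 27) and 3 from sham (replicates 6, 18 and 23), chosen by their genotype and time labels alone, and on the 9931 genes with a symbol. The mice were C57BL/6 with both copies of *Rest* flanked by loxP sites and a Cre-dependent tdTomato reporter. AAV carrying Cre under the human synapsin promoter was injected into the sensorimotor cortex, so that deletion was limited to infected neurons, and the tdTomato-positive cells are called REST cKO. WT neurons, used here for comparison, came from mice of the same alleles that received AAV-GFP under the same promoter. The mice were 4 to 6 weeks old and of both sexes, the injury was a complete crush of the thoracic cord, and each library was made from about 1000 sorted cells with a kit that reads the 3′ end of each transcript. The study counts its replicates in mice, but neither its methods nor the labels tie a library to a mouse or say whether cells of several were pooled, so the errors below measure the spread between libraries.

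REST is a zinc finger repressor that binds an element called RE1 and recruits corepressors and histone deacetylases, and it is known for keeping neuronal genes silent outside neurons and for limiting them inside neurons. Its classical targets code for ion channels, synaptic vesicle proteins and cytoskeletal proteins. After axon injury, neurons that can regrow are known to raise a set of transcription factors, among them *Jun*, *Atf3*, *Sox11*, *Stat3* and *Smad1*, and then genes of the growth cone.

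Values are given on the log10 scale of normalized counts, on which a difference of 1 is 10-fold. The floor of the scale was near -3 before the values were shifted gene by gene for batch and components, so that a low value does not show whether a read was present. Before the component shift 1 read lay at -0.68 in sham replicate 6, so that the step from no read to 1 read spans most of a difference of 3 from the floor, and such a difference is no measure of fold. Differences come from a limma model over all libraries with 2 sequencing components as covariates, and are called fitted differences, with their standard error (SE). Over all genes the slope of fitted differences on plain differences of group means was 1.17, so fitted differences tended to be larger in size. A gene is called changed at a Benjamini-Hochberg adjusted p under 0.1. Values under -2 made up 4.16% to 9.24% of each of the 7 libraries. The groups differed in more than injury. The sham libraries were all labelled male, and 3 of the 4 day 3 libraries female. The first component was 15.7 and 10.5 in sham replicates 18 and 23 and between -8.48 and 1.44 in the other 5 libraries. Each of the 3 batches held at least 1 library of each group, and differences within batches are given below. The parts of sex and of the components in the results were not tested beyond the alternatives of the closing section.

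*Rest* itself was low in both groups. It measured -0.04, -0.31, -0.24 and -1.61 at day 3 and -2.65, -0.79 and -0.52 in sham, and the groups overlapped (fitted difference 1.48, SE 0.95, adjusted p = 0.999 with limma), with a difference of 0.58 without sham replicate 6. Its plain difference of means was 0.77, and -1.09 within batch 3. The WT sham libraries spanned -1.55 to -0.26, which overlaps the REST cKO sham libraries, and the WT day 3 libraries spanned 0.56 to 2.88, above every REST cKO day 3 library. Reads come from the 3′ end of the transcript and the position of the loxP sites is not given in the sources used here, so the *Rest* value may not check the deletion.

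The libraries were labelled as cortical motor neurons. Of the 13 excitatory neuron markers measured, the summed level was 2.74 to 3.70 in sham and 2.89 to 3.40 at day 3. The 18 microglial markers were all measured and summed to 4.21 to 4.58 in sham and 4.67 to 4.91 at day 3. None of them was under -2 in any of the 7 libraries. So microglial RNA was abundant in libraries sorted as neurons, and its summed level was higher in every day 3 library than in every sham library. The mean level of the same markers overlapped, at 2.72 in sham replicate 23 and 2.67 in day 3 replicate 27. Fewer cells of a type and less RNA per cell cannot be told apart in such bulk samples. The level of 3′ reads does not scale with transcript length, and these sums were not divided by length.

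Only 2 genes passed the threshold at day 3 against sham, 0.0201% of those tested, and both rose. At an unadjusted p under 0.05, 290 genes were higher at day 3 (2.92% of the genes tested) and 172 were lower (1.73%), of 9931. After quantile normalization 295 were higher and 260 lower, so the excess of higher genes depended on the scaling (62.8% and 53.2% of these genes were higher). Day 3 and sham did not overlap in 378 genes that were higher at day 3 (3.81%) and in 286 that were lower (2.88%). The median fitted difference over all genes was 0.03, and the median plain difference over all genes was 0.01, 0.27 and -0.14 within batches 1, 2 and 3. Of the 1719 genes at 1 or more in every one of the 7 libraries, none passed the threshold by limma, and 47 were higher and 24 lower at an unadjusted p under 0.05. In the text that follows, "rose" is kept for the genes that passed, and all other genes are described by their values.

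*N4bp2l2*, which codes for a protein named for its likeness to a BCL3-binding protein, measured 2.50, 3.31, 1.12 and 1.17 at day 3 and -2.88, 0.71 and -1.13 in sham. The groups did not overlap. It rose by a fitted difference of 3.93 (SE 0.70, adjusted p = 0.0751 with limma), with a plain difference of 3.12. The adjusted p was 0.306 without the components, 0.265 with a sex term, 0.195 without a variance trend and 0.881 in the 7 libraries alone, so the call depended on these settings. The gene lies on chromosome 5 at 150608007 to 150666183 on the minus strand of GRCm38. In WT neurons the same difference was 0.23, and the difference between genotypes had an adjusted p of 0.912.

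*Rpl3-ps1* measured 2.28, 2.44, 3.36 and 2.84 at day 3 and -3.18, 0.46 and -0.65 in sham. All day 3 libraries were above all sham libraries, and it rose by 4.94 (SE 0.93, adjusted p = 0.0826 with limma). Its plain difference was 3.85. The adjusted p was 0.105 with a sex term, 0.129 with a batch term, 0.278 without a variance trend, 0.342 without the components and 0.398 in the 7 libraries alone. It is annotated as a processed pseudogene of a ribosomal protein gene, on chromosome X at 13202571 to 13203780 on the plus strand of GRCm38. Reads of its near-identical parent *Rpl3* can be assigned to it, so its level is uncertain. In both genes the lowest value was that of sham replicate 6, and without that library both had an adjusted p of 0.784.

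**Figure D1:**
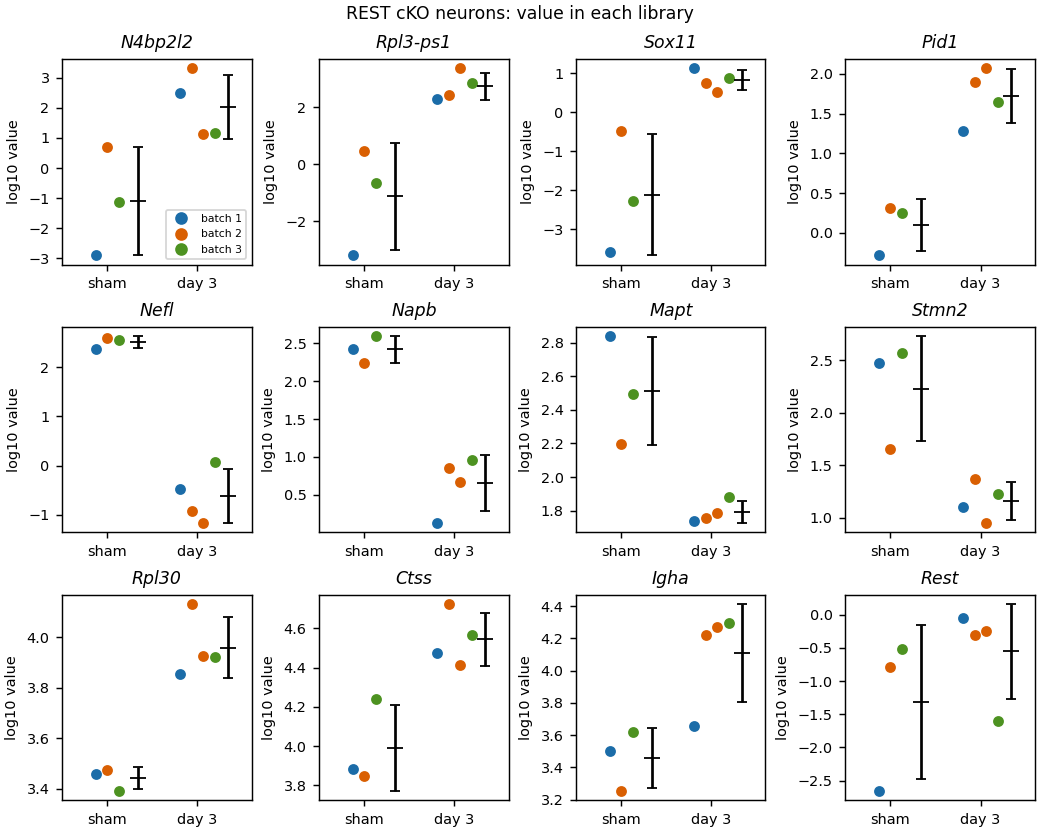
Values of 12 genes in the 7 REST cKO libraries, on a log10 scale with its own range in each panel, with 3 sham libraries on the left and 4 day 3 libraries on the right of each panel, coloured by batch. Bars give the mean and SD. *Nefl*, *Napb*, *Mapt* and *Stmn2* were lower in every day 3 library, *N4bp2l2*, *Rpl3-ps1*, *Sox11*, *Pid1*, *Rpl30*, *Ctss* and *Igha* were higher, and *Rest* overlapped.

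Beside *Rpl3-ps1* and *N4bp2l2*, the largest upward differences were taken among genes without overlap, with an unadjusted p under 0.05 and with a mean value of at least 0 over the series. *Vps13c*, a lipid transfer protein of late endosomes and mitochondria, measured 1.79, 0.34, 1.00 and 2.03 at day 3 and -3.51, -1.76 and -2.20 in sham (fitted difference 4.33, SE 1.00, adjusted p = 0.276). *Slc17a5*, the lysosomal sialic acid transporter, measured 0.90, 0.90, 1.08 and 1.49 at day 3 against -3.43, -0.75 and -2.06 (4.19, SE 1.00, adjusted p = 0.308). *B4galnt1*, an enzyme of complex ganglioside synthesis, had a fitted difference of 4.08 (SE 1.19). In all 3 genes sham replicate 6 was under -3 and every day 3 library was above 0.

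The other genes of that set were *Fgfr1op* (3.67), a centrosomal protein, *Stoml1* (3.57), *Gsap* (3.52), a regulator of gamma-secretase, *Slfn2* (3.46), *Aqr* (3.45), an RNA helicase of the spliceosome, *G2e3* (3.35), *Gpr26* (3.19) and *Ncf4* (2.97), a subunit of the phagocyte NADPH oxidase. Without sham replicate 6 the difference was 0.91 for *Ncf4* and 2.67 for *B4galnt1*. They differed in the same direction within each of the 3 batches, which the condition of no overlap fixed in advance. In 11 of the 12 genes, *N4bp2l2* included, sham replicate 6 was under -2, so that these differences rest on values near the floor of the scale. Among all 290 genes that were higher at an unadjusted p under 0.05, sham replicate 6 was under -2 in 123.

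*Pid1*, which codes for a phosphotyrosine-binding protein of insulin signalling, was measured in every library. It was 1.28, 1.90, 2.07 and 1.64 at day 3 and -0.28, 0.31 and 0.25 in sham. No library overlapped, and the fitted difference was 2.22 (SE 0.48, adjusted p = 0.165).

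The largest downward differences under the same conditions were led by *Nefl*, the light chain of the neurofilaments that fill large axons. It measured -0.47, -0.92, -1.16 and 0.08 at day 3 and 2.36, 2.59 and 2.56 in sham, so that the tightly grouped sham libraries were far above every day 3 library. The fitted difference was -3.64 (SE 1.32), with an unadjusted p of 0.0107 and an adjusted p of 0.905. *Nefl* lies on chromosome 14 at 68083863 to 68089095 on the plus strand of GRCm38. The 4 WT sham libraries ranged from -2.84 to 1.84 for this gene, below all 3 REST cKO sham libraries.

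Several of the other genes of that set work on the neuronal cytoskeleton or at the membrane. *Sept8*, a septin of synaptic vesicles, had a fitted difference of -2.98, *Tpgs2*, a subunit of the tubulin polyglutamylase complex, -2.98, *Kcnip3*, a calcium sensor that binds A-type potassium channels, -2.95, *Stmn4*, a tubulin-binding stathmin, -2.88, *Mtss1*, an actin- and membrane-binding protein, -2.76 and *Kif21a*, a kinesin, -2.70. The rest were *Sec24a* (-2.88) of the COPII coat, *Cops6* (-2.86) of the COP9 signalosome, *Nfu1* (-2.66) of mitochondrial iron-sulfur cluster assembly, *Ivd* (-2.65) of leucine breakdown and *Ino80c* (-2.59) of the INO80 chromatin remodeller. All 12 were lower at day 3 within each batch, which the condition of no overlap fixed in advance. The difference was -1.64 for *Kif21a* without day 3 replicate 9 and -1.84 for *Cops6* without day 3 replicate 20, and -4.74 for *Ino80c* and -4.42 for *Nfu1* without sham replicate 6. A day 3 value was under -2 in 4 of the 12, and no sham value was.

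Genes of the microtubule cytoskeleton were the list with the most members that were lower. Of 58 tubulins, microtubule-associated proteins and motors measured, 9 were lower and 0 higher at an unadjusted p under 0.05, against 1.73% and 2.92% of all genes, and none passed the adjusted threshold. *Map1b*, a microtubule-binding protein of growing axons, measured 2.18, 1.30, 1.58 and 1.36 at day 3 and 2.77, 3.02 and 2.74 in sham (fitted difference -1.46, SE 0.48). *Mapt*, which codes for tau, measured 1.74, 1.76, 1.79 and 1.88 at day 3 and 2.84, 2.20 and 2.50 in sham (-1.03, SE 0.37). The groups overlapped in neither gene, and the day 3 libraries of *Mapt* lay close together (SD 0.06, n = 4).

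*Stmn2*, the stathmin of axon growth, measured 1.10, 1.37, 0.95 and 1.23 at day 3 and 2.47, 1.66 and 2.57 in sham (fitted difference -1.45, SE 0.54). *Map9* had a fitted difference of -2.06 (SE 0.61) and *Tuba4a*, an alpha-tubulin, of -1.21 (SE 0.47). *Map7d1* (-1.29) and *Tubb4a* (-2.87) were the other members that were lower beside *Kif21a* and *Stmn4*. The groups overlapped in *Map9*, *Tuba4a* and *Tubb4a*. The median fitted difference of the list was -0.24, and it was -0.11 without sham replicate 23, -0.47 without sham replicate 18 and -0.40 without day 3 replicate 9. Within batches the median was -0.43 in batch 1, 0.28 in batch 2 and -1.0 in batch 3, so the list as a whole was not lower in batch 2, whose sham library is replicate 18 and where the median of all genes was 0.27. The list shares 9 genes with the growth-associated genes, among them *Stmn2*, *Stmn4* and *Map1b*.

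Of 47 synaptic vesicle and exocytosis genes, 7 were lower and 0 higher at an unadjusted p under 0.05, against 1.73% and 2.92% of all genes. A fitted difference below 0 was found in 38 of them and in 4808 of the 9931 genes tested. *Napb*, the neuronal form of the SNAP protein that takes SNARE complexes apart, measured 0.12, 0.85, 0.67 and 0.95 at day 3 and 2.42, 2.25 and 2.60 in sham (fitted difference -2.07, SE 0.58, adjusted p = 0.72). All 4 day 3 libraries were below all sham libraries. *Synj1*, the synaptojanin that uncoats endocytosed vesicles, measured 2.32, 2.39, 1.64 and 1.55 at day 3 and 2.72, 2.75 and 2.96 in sham (-0.78, SE 0.35).

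*Slc17a7*, the vesicular glutamate transporter of cortical excitatory neurons, measured 1.27, 1.80, 1.90 and 2.07 at day 3 and 2.60, 1.80 and 2.88 in sham, with sham replicate 18 inside the range of day 3 (fitted difference -1.03, SE 0.40). *Ppfia3*, a liprin of the active zone, had a difference of -4.22 (SE 1.35), *Unc13a*, a vesicle priming factor, -2.9 (SE 1.19), and *Syt11* -1.0 (SE 0.46). *Ppfia3* measured -2.97, -4.23, -4.32 and 0.23 at day 3 and 2.03, -1.01 and 0.50 in sham. The groups thus overlapped in *Ppfia3*, with day 3 values near the floor, and they overlapped in *Unc13a*. The median of the list was -0.55 in the fit, and -0.71, 0.03 and -0.81 in batches 1, 2 and 3.

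The 56 measured genes of a list of known neuronal REST targets had a median fitted difference of -0.74, and 45 of them were below 0, against 4808 of the 9931 genes tested. At an unadjusted p under 0.05, 5 were lower (*Nefl*, *Stmn2*, *Unc13a* and *Cacna1a* among them) and none higher by limma, against 1.73% and 2.92% of all genes, and none passed the adjusted threshold. *Cacna1a*, the pore of P/Q-type calcium channels, had a fitted difference of -2.44 (SE 1.17), with all 4 day 3 libraries and sham replicate 18 below -1. The list shares 17 genes with the synaptic vesicle list, so that the counts of the lists are not separate. Its median was -1.0 in batch 1, 0.09 in batch 2 and -0.68 in batch 3, and -0.39 in the fit without sham replicate 6. The mean level of the list was 0.25 to 0.49 in the 4 day 3 libraries, and 1.41, 0.35 and 1.02 in sham replicates 6, 18 and 23, so that replicate 18 was in the range of day 3.

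To see which genes carry an RE1 near their start irrespective of expression, promoter windows of RefSeq (GRCm38.p6, 250 bases before to 50 after the start) were searched on both strands for the RE1 core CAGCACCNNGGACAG with at most 1 mismatch at its 13 fixed letters. A match was found in 61 of 32851 windows (0.186%) and in 19 of the 7748 measured genes with a window (0.245%). The 3 exact matches and 4 matches in genes of the synapse are shown because they name the sequence that REST is known to bind. They are read along the motif, with the letters that match it in capitals.
Fam163b: cgtCAGCACCagGGACAGttc
Osbp2: cttCAGCACCgcGGACAGcgg
Hrh3: gggCAGCACCacGGACAGcgc
Syn1: attCAGCACCgcGGtCAGagc
Gria2: ttttAGCACCgcGGACAGcgc
Scamp5: atttAGCACCacGGACAGctc
Rph3a: agtCAGtACCacGGACAGcac
The 15-base motif of *Fam163b* lies at chr2:27142565-27142579, that of *Osbp2* at chr11:3774793-3774807 and that of *Hrh3* at chr2:180104576-180104590. Those of the synaptic genes lie at chrX:20921134-20921148 for *Syn1*, chr3:80802991-80803005 for *Gria2*, chr9:57468198-57468212 for *Scamp5* and chr5:121009616-121009630 for *Rph3a*. A match is a description of these letters and not a measured binding site.

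Of the 19 genes with a match, 14 had a fitted difference below 0, against 4808 of the 9931 genes tested, and the median was -0.41. Only *Fam163b* was lower at an unadjusted p under 0.05, and none was higher by limma, against 1.73% and 2.92% of all genes. *Fam163b* measured -3.01, 0.89, -2.35 and 1.48 at day 3 and 1.52, 2.11 and 1.10 in sham, so the groups overlapped (-2.86, SE 1.26). *Syn1*, the synapsin that tethers vesicles, measured 0.57, 1.11, 1.62 and 1.03 at day 3 and 2.15, 1.61 and 2.14 in sham (-1.38, SE 0.88). *Gria2*, an AMPA receptor subunit, measured 1.86, 1.84, 1.47 and 1.97 at day 3 and 2.12, 1.25 and 2.33 in sham (-0.23, SE 0.55). The values of *Syn1* and *Gria2* overlapped between groups. Within batches the median of the 19 genes was -0.86, 0.02 and 0.32, so it was below 0 in 1 of 3 batches.

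Receptor and channel genes varied widely between libraries, and the counts of these lists at an unadjusted p under 0.05 are set against the 2.92% of all genes that were higher and the 1.73% that were lower. Of 27 glutamate and GABA receptor genes, 23 had a fitted difference below 0 (median -0.72), and the only member at an unadjusted p under 0.05 was *Gabrg3*, a GABA-A receptor subunit, which was higher (2.38, SE 0.98). Of 56 voltage-gated channel genes, 3 were lower (*Kcnip3* and *Cacna1a* among them) and 1 higher (*Kcnq5*). The channel list's median was -0.89, 0.88 and -0.33 in batches 1, 2 and 3. Of 39 axon guidance genes, 1 was lower, *Unc5b*, a netrin receptor (-3.71, SE 1.33), a count near the share of all genes. Of 38 cAMP signalling genes, *Adcy1*, a calcium-stimulated adenylyl cyclase, was lower (-1.39, SE 0.67) and *Gnai1* higher (3.18, SE 1.26).

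**Figure D2:**
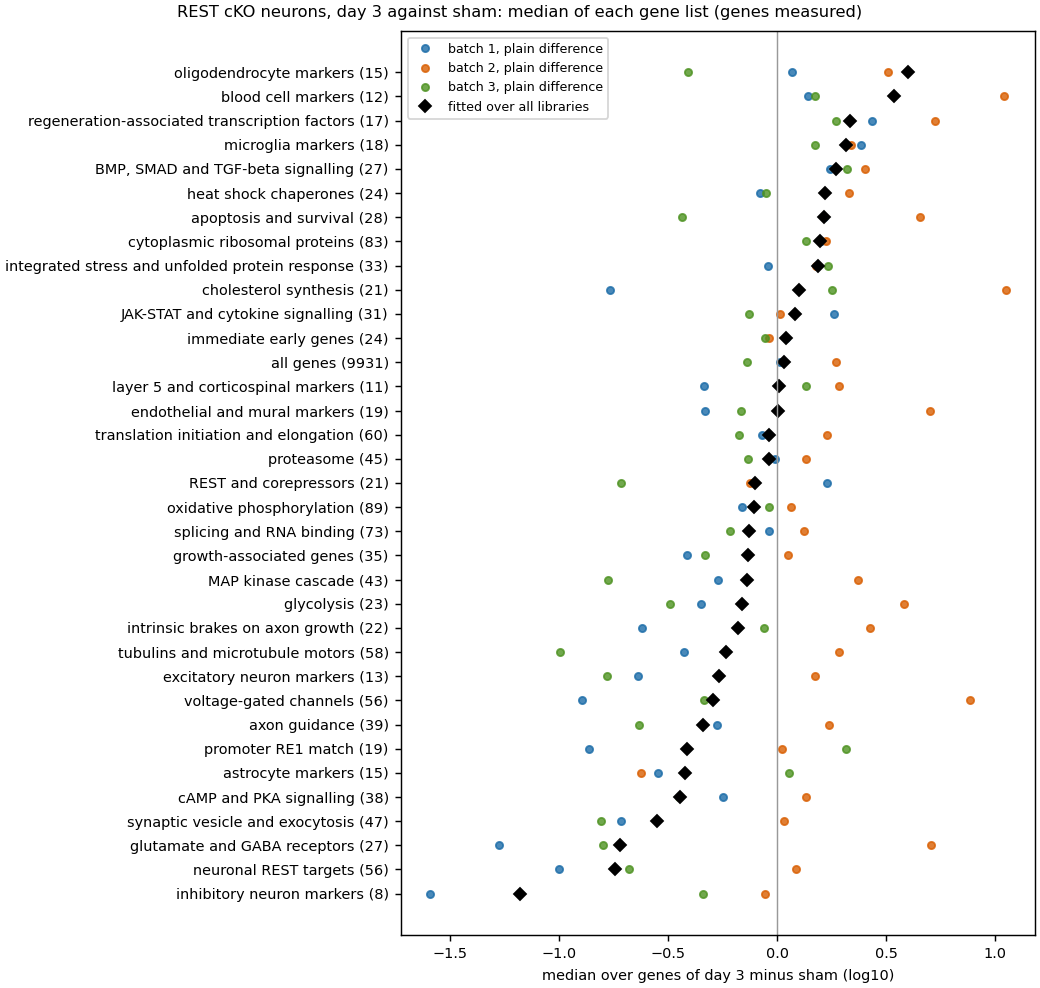
Median over the genes of each list of the difference between day 3 and sham in REST cKO neurons, on a log10 scale, with the number of genes measured in brackets. Diamonds are the fitted differences over all libraries and dots the plain differences within batches 1, 2 and 3. The neuronal REST targets (-0.74), receptors (-0.72) and synaptic vesicle genes (-0.55) lie to the left of the median of all genes (0.03) in the fit. In batch 2 they lie at 0.09, 0.71 and 0.03, where the median of all genes is 0.27. The ribosomal proteins and microglial markers lie to the right of 0 in the fit and in all 3 batches, but the ribosomal proteins (0.22) lie to the left of all genes in batch 2.

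Ribosomal protein genes were slightly higher at day 3 in the median. Of 83 measured, 67 had a fitted difference above 0, with a median of 0.20 (1.58-fold). The medians within batches were 0.20, 0.22 and 0.13, against 0.01, 0.27 and -0.14 over all genes, so that the list was below all genes in batch 2. At an unadjusted p under 0.05, 5 were higher and 0 lower, against 2.92% and 1.73% of all genes. *Rpl30* measured 3.86, 4.13, 3.93 and 3.92 at day 3 and 3.46, 3.47 and 3.39 in sham (fitted difference 0.54, SE 0.16, adjusted p = 0.759). *Rps27a*, which codes for a fusion of ubiquitin and a ribosomal protein, measured 3.31, 3.43, 3.59 and 3.30 at day 3 and 2.93, 3.12 and 3.01 in sham (0.54, SE 0.19). Day 3 was above sham in every library for both genes. *Rps3* (0.46), *Rps29* (0.39) and *Rps27* (0.33) were the others.

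The mean level of the ribosomal list was 2.59 to 2.69 at day 3 and 2.48 to 2.54 in REST cKO sham, without overlap. In WT sham it was 2.58 to 2.70, which overlapped REST cKO day 3. Ribosomal protein genes have many processed pseudogenes, so that reads may be split between copies. Genes of other parts of the translation machinery did not share the direction as a list. Of 60 initiation and elongation factors, 2 were higher and 1 lower at an unadjusted p under 0.05, and the median was -0.04. These counts are near the shares of all genes, 2.92% and 1.73%.

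Microglial markers were higher in the same direction. Of the 18 markers 17 had a fitted difference above 0, with a median of 0.31 (2.06-fold), and medians of 0.39, 0.34 and 0.18 within the 3 batches. The median of their plain differences was 0.24. At an unadjusted p under 0.05, 4 were higher and 0 lower, against 2.92% and 1.73% of all genes. *Ctss*, a lysosomal protease of microglia, measured 4.47, 4.73, 4.41 and 4.56 at day 3 and 3.88, 3.85 and 4.24 in sham (fitted difference 0.64, 4.38-fold in the fit, SE 0.15 on the log10 scale, adjusted p = 0.276). Every day 3 library was above every sham library. *C1qb* (0.41, SE 0.19) and *Trem2* (0.77, SE 0.37), each known as a microglial gene, were also higher at that threshold, and sham replicate 23 passed the day 3 range in *C1qb*.

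Blood cell markers were led by *Igha*, the constant region of immunoglobulin A heavy chains, which measured 3.66, 4.22, 4.27 and 4.30 at day 3 and 3.5, 3.26 and 3.62 in sham (fitted difference 0.84, SE 0.18, adjusted p = 0.16). The groups did not overlap, although day 3 replicate 9 was close to the highest sham library. *Lyz2*, a lysozyme of myeloid cells, was also higher (0.66, SE 0.28). At an unadjusted p under 0.05, 2 of the 12 measured were higher and 0 lower, against 2.92% and 1.73% of all genes. The list's 12 measured genes summed to 4.33 to 4.44 in sham and 4.13 to 4.92 at day 3. The part of microglial and blood cell RNA in the differences of the neuronal genes was not tested.

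Of the other cell types, 0 of 15 astrocyte, 0 of 15 oligodendrocyte and 0 of 19 endothelial markers reached an unadjusted p under 0.05 in either direction, by the same limma fit. Over all genes 2.92% were higher and 1.73% lower, so counts of 0 in lists of this size are near these shares. The counts below 0 that follow are set against 4808 of the 9931 genes tested. The astrocyte markers nevertheless had a median of -0.42, with 13 of 15 below 0, and summed to 3.11 to 3.79 in sham and 2.79 to 3.78 at day 3. The part of astrocyte RNA in the lower neuronal lists was not tested. The oligodendrocyte markers had a median of 0.60, with 10 of 15 above 0, and medians of 0.07, 0.51 and -0.41 within batches 1, 2 and 3. The excitatory neuron list had a median of -0.27, with 10 of 13 below 0, and batch medians of -0.64, 0.18 and -0.78. It had 2 lower members, *Slc17a7* above and *Neurod6*, a transcription factor of pyramidal neurons, which measured -0.30, 0.32, 0.66 and 0.53 at day 3 and 2.11, 1.30 and 1.81 in sham (-1.65, SE 0.67). The 11 layer 5 and corticospinal markers had a median of 0.01, and none reached an unadjusted p under 0.05. The 8 inhibitory neuron markers measured of 17 had a median of -1.18, with no member at that level either. Their summed level was 2.30, 3.32 and 2.40 in sham replicates 6, 18 and 23 and 1.02 to 1.69 at day 3, without overlap, and their mean level was 0.11 to 1.15 in sham and -0.92 to -0.27 at day 3. The part of inhibitory neuron RNA in the lower synaptic and REST target lists was not tested.

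**Figure D3:**
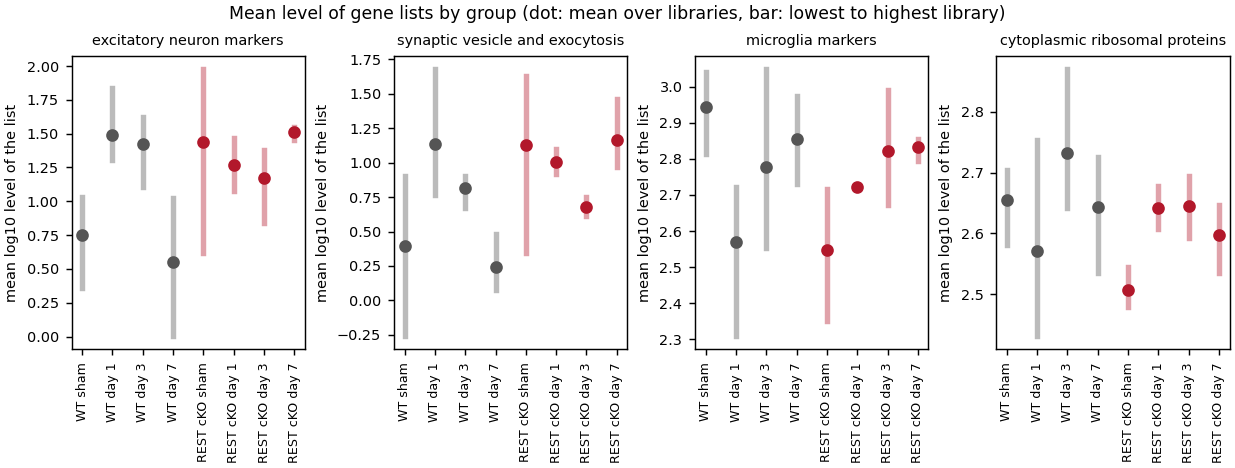
Mean log10 level of 4 gene lists in each of the 8 groups of the series, WT in grey and REST cKO in red. Dots are means over the 2 to 4 libraries of a group and bars run from the lowest to the highest library. REST cKO sham spans 2.48 to 2.54 for the ribosomal list, below REST cKO day 3 (2.59 to 2.69), and 0.34 to 1.63 for the synaptic vesicle list, around the day 3 libraries (0.61 to 0.75).

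The transcription factors linked to regeneration were mostly higher. Of 17 measured, 13 had a fitted difference above 0 (median 0.33), against 5123 of the 9931 genes tested. The medians were 0.43, 0.72 and 0.27 in the 3 batches, against 0.01, 0.27 and -0.14 over all genes. At an unadjusted p under 0.05, 2 were higher, against 2.92% of all genes. *Sox11* measured 1.12, 0.75, 0.51 and 0.88 at day 3 and -3.57, -0.49 and -2.28 in sham (fitted difference 2.89, SE 1.07, adjusted p = 0.947). *Smad1*, a mediator of BMP signals, measured 0.91, 0.85, 0.13 and 0.70 at day 3 and -1.42, -1.56 and -1.95 in sham (2.36, SE 1.13, adjusted p = 0.999). Both were without overlap, and both were under 0 in every sham library. Without sham replicate 6 the difference of *Sox11* was 1.38.

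*Atf3*, a stress-induced factor, measured 0.54, 0.67, 1.66 and 1.70 at day 3 and -0.21, -1.04 and 0.20 in sham (1.38, SE 1.01). *Jun* measured 3.24, 3.04, 3.77 and 3.39 at day 3 and 2.80, 2.15 and 2.84 in sham (0.33, SE 0.30). *Stat3* measured 3.21, 3.42, 3.25 and 3.01 at day 3 and 2.50, 2.05 and 3.19 in sham (0.41, SE 0.29). *Atf3* and *Jun* did not overlap between groups, and *Stat3* did through sham replicate 23. All 6 genes, *Rest* included, are among the 140 whose deposited values still correlated with a component, and the plain difference of means of *Jun* was 0.76, more than its fitted difference. Without sham replicate 6 the fitted difference was 0.066 for *Jun* and 0.015 for *Stat3*, and without day 3 replicate 20 it was 0.091 for *Jun*. That of *Atf3* was 0.85 without day 3 replicate 27, and that of *Stat3* was 0.71 without sham replicate 23.

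Other programmes of injured neurons showed few members that differed, and their counts are to be read against the 2.92% of all genes that were higher and the 1.73% that were lower. Of 35 growth-associated genes, *Sox11* and *Marcks*, a membrane substrate of protein kinase C (0.43, SE 0.19), were higher and *Map1b*, *Stmn2* and *Stmn4* lower. None of 24 immediate early genes reached an unadjusted p under 0.05 (median 0.04), and none of 22 intrinsic brakes on axon growth (-0.18), 31 JAK-STAT genes (0.08), 21 genes of REST and its corepressors (-0.10, *Rest* included), 23 glycolysis genes (-0.16) or 21 cholesterol synthesis genes (0.10). Of 33 stress and unfolded protein response genes *Slc3a2*, an amino acid transporter chain, was higher (0.62, SE 0.28), and of 24 heat shock chaperones *Hspd1*, the mitochondrial chaperonin, was higher (1.21, SE 0.47) and *Hsp90ab1* lower (-0.47, SE 0.22). Of 28 apoptosis genes *Mcl1*, an antiapoptotic BCL2 relative, was lower (-0.56, SE 0.21), and of 27 BMP and TGF-beta genes *Smad1* was higher.

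The following counts are read against the same shares of all genes, 2.92% higher and 1.73% lower. Among 45 proteasome genes 3 were higher, *Psmb9* (1.26, SE 0.49) and *Psme1* (0.93, SE 0.37), both parts of the interferon-induced immunoproteasome, and *Psmc6* (1.29, SE 0.60). Among 89 oxidative phosphorylation genes *Ndufc1* (1.10, SE 0.38) and *mt-Co1* (0.45, SE 0.18) were higher, and *Uqcrb* (-0.73, SE 0.27) and *Ndufab1* (-0.59, SE 0.28) lower. Of 43 MAP kinase genes *Araf*, a RAF kinase, was lower (-1.58, SE 0.52), with *Map3k10* (-2.56, SE 1.24). Of 73 splicing and RNA-binding genes *Hnrnpf* was higher (0.84, SE 0.30), and the median was -0.13.

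To ask whether this response differed from that of WT neurons, the difference at day 3 was compared between genotypes. The WT groups had 4 sham and 3 day 3 libraries. WT day 3 replicate 5 stood apart, with 29.45% of its values under -2, against 2.77% to 16.98% in the other 24 libraries of the series, and 1 read in it was worth 2.48 normalized counts, against 0.160 to 0.519 in the other 9 libraries of batch 1. No gene passed the adjusted threshold with limma, with or without that library, and 511 genes (5.15% of those tested) had an unadjusted p under 0.05, or 514 without it. The 10 genes named for this comparison kept their direction without it. Their differences between genotypes were smaller without the components, as the closing section gives. *Mapt* had the smallest p of the named genes in the downward direction. It was lower at day 3 in REST cKO (-1.03, SE 0.37), while in WT it measured 0.99 to 1.59 in sham and 1.82 to 3.33 at day 3 (fitted difference 1.49), and the difference between genotypes was -2.52 (SE 0.59, unadjusted p = 0.000218, adjusted p = 0.883, and -2.71 without WT day 3 replicate 5). So REST cKO day 3 (1.74 to 1.88) lay above every WT sham library and overlapped WT day 3.

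*Olfm1*, a secreted neuronal glycoprotein, had fitted differences of -0.85 in REST cKO and 0.94 in WT (difference -1.79, SE 0.47). *Foxp1*, a forkhead factor of cortical neurons, had -0.14 and 1.86 (-2.0, SE 0.53), but its REST cKO means were 2.43 at day 3 and 2.09 in sham, so that the sign in REST cKO differed with and without the components. *Sept8* had -2.98 and 2.50 (-5.48, SE 1.58), and *Mapre2*, a microtubule end-binding protein, -1.09 and 3.31 (-4.40, SE 1.26). The REST cKO libraries of *Mapre2* overlapped, with means of 1.30 at day 3 and 1.41 in sham. In each of these genes the WT response was the higher of the pair.

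In the other direction, *Pid1* had fitted differences of 2.22 in REST cKO and -1.04 in WT (difference 3.26, SE 0.76, adjusted p = 0.883, and 3.11 without WT day 3 replicate 5). *Pid1* in WT sham was 1.25 to 2.20, above all REST cKO sham libraries and overlapping REST cKO day 3. *Slc17a5* (4.19 and -2.06), *Cmc1* (3.2 and -2.26), a mitochondrial assembly factor, *Fgfr1op* (3.67 and -2.54) and *Erh* (3.03 and -1.84), a small nuclear protein, completed the named set. In these 4 genes sham replicate 6 was under -3. *Cmc1* and *Erh* overlapped between the REST cKO groups, with plain differences of 2.05 and 1.94, and were lower at day 3 within batch 3 (-1.26 and -1.97).

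Several neuronal lists, and the astrocyte markers, had medians of opposite sign in the genotypes. The median fitted difference of the neuronal REST targets was -0.74 in REST cKO and 0.63 in WT, that of the synaptic vesicle genes -0.55 and 0.64, that of the receptors -0.72 and 0.61 and that of the channels -0.29 and 0.61. The excitatory neuron markers had -0.27 and 0.88 and the astrocyte markers -0.42 and 0.72, while the inhibitory neuron markers (-1.18 and -0.55) and the layer 5 markers (0.01 and 0.16) had the same sign in both. The median difference between genotypes was -1.21 for the REST targets, -1.11 for the synaptic vesicle genes and -1.08 for both the excitatory neuron and the astrocyte markers. Without WT day 3 replicate 5 these were -1.15, -1.15, -0.96 and -1.14. For the difference between genotypes, 9 of 56 REST targets were lower and 1 higher at an unadjusted p under 0.05, and 8 of 47 synaptic vesicle genes were lower and 0 higher, against 5.15% of all genes in both directions together. The ribosomal list was 0.20 and 0.09, and the regeneration factors 0.33 and 0.42. The mean level of the synaptic vesicle list was -0.26 to 0.90 in WT sham, 0.67 to 0.90 in WT day 3 and 0.61 to 0.75 in REST cKO day 3, and the day 3 groups overlapped. The sham groups overlapped too, at 0.34 to 1.63 in REST cKO, with means of 0.40 in WT and 1.13 in REST cKO. At day 7 the list was 0.08 to 0.48 in WT and 0.97 to 1.46 in REST cKO. The microglial list moved the other way in the sham groups, at 2.81 to 3.04 in WT and 2.35 to 2.72 in REST cKO. The mean level of the astrocyte list was 0.26 to 0.58 in WT sham and 0.96 to 2.04 in REST cKO sham, without overlap. The parts of both cell types in these differences were not tested.

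**Figure D4:**
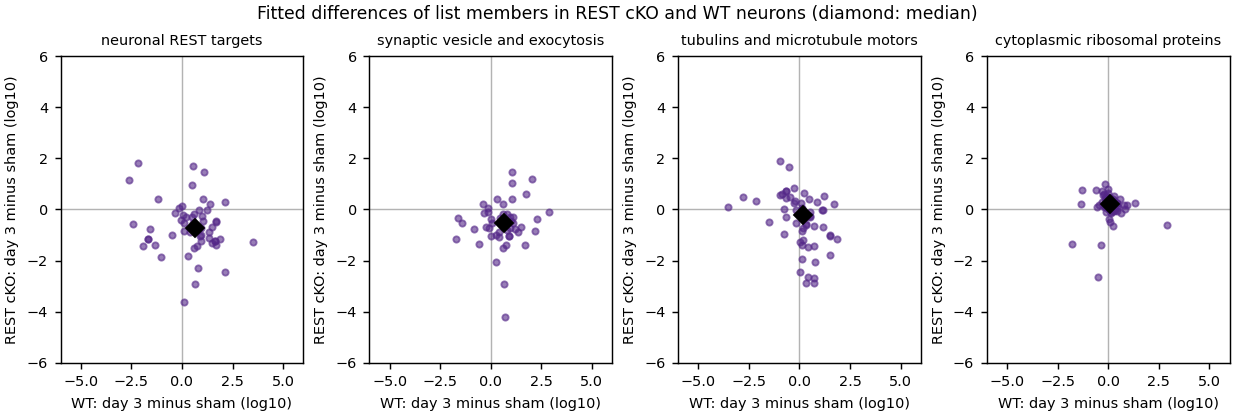
Fitted differences between day 3 and sham of the members of 4 lists in WT (x axis) and REST cKO neurons (y axis), on a log10 scale, with 1 dot for a gene and a diamond for the median. The medians of the neuronal REST targets (0.63 and -0.74), synaptic vesicle genes (0.64 and -0.55) and tubulins and motors (0.15 and -0.24) lie at the lower right, and that of the ribosomal proteins (0.09 and 0.20) above 0 on both axes.

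To follow the day 3 state in time, REST cKO neurons at day 7 (3 libraries) were compared with day 3 directly. No gene passed the adjusted threshold with limma, and 434 (4.37%) had an unadjusted p under 0.05. *Ank2*, the ankyrin of axonal membranes, was 1.87 to 2.52 at day 7 and 0.56 to 1.11 at day 3 (1.55, SE 0.48). It was lower at day 3 than in sham at an unadjusted p under 0.05, and its day 7 levels overlapped those of sham (1.29 to 2.28). *Dnaja1*, a cytosolic HSP40 chaperone (1.71, SE 0.42), *Arpc4*, an Arp2/3 subunit (1.63, SE 0.45), and *Oxr1* (1.73, SE 0.53) were also higher at day 7.

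*Ran*, the GTPase of nuclear transport, was 0.62 to 1.44 at day 7 and 2.20 to 3.23 at day 3, without overlap (fitted difference -1.72, SE 0.37, unadjusted p = 8.08e-05, adjusted p = 0.802). *Exosc2* (-3.36) of the RNA exosome, *Cap2* (-3.54), *Wiz* (-3.21) and *Aurkaip1* (-3.37) were the other named genes that were lower at day 7. As lists, the median difference of day 7 from day 3 was 0.43 for the neuronal REST targets, 0.47 for the synaptic vesicle genes, -0.08 for the ribosomal and -0.06 for the microglial list, and 0.04 over all genes. An unadjusted p under 0.05 was reached by 6 of 56 REST targets and by 1 of 47 synaptic vesicle genes, against 4.37% of all genes, so the synaptic vesicle count was under the share of all genes. *Nefl* was -1.40 to 0.27 at day 7, below every sham library.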

How the data were processed

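RNA of about 1000 sorted neurons per library was measured by 3′ RNA-seq in 25 libraries, in 8 groups of 2 to 4 taken from the labels. The authors deposited normalized counts on a log scale, made by aligning reads to mm10 with STAR, quantifying with Salmon, scaling with DESeq2, removing batch effects and regressing out 2 components of sequencing metrics. The deposited table is described as log2, but its values are log10. In the 10 libraries of batch 1, after the components' slopes were put back, the zero floor of 1082 genes was at -3.000000, the log10 of a pseudocount of 0.001, and the steps above the floor for 2 and 3 reads lay 0.305 and 0.475 above that for 1 read (log10 of 2 is 0.301 and of 3 is 0.477). Differences here are therefore in log10 units, and the planned mean filter of 0 was applied on that scale. P-values do not depend on the base. By these steps, 1 read was worth 0.160 to 0.519 normalized counts in 9 libraries of batch 1 and 2.48 in WT day 3 replicate 5, which was thus the shallowest of them. Total read counts are not in the deposited values and the steps were read in batch 1 alone, so no counting interval is given. The authors' own fold changes and p-values in the table were not used.

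A linear model was fitted to each of 9931 genes (24 of 9955 rows had no symbol) by limma 3.58.1 (R 4.3.3), with 8 group means and both components over all libraries, empirical Bayes with a trend, and Benjamini-Hochberg adjustment with a threshold of 0.1. The procedure was tested on simulated data. All p-values in the text are two-sided limma values. An exact permutation test over the 35 splits of 7 libraries cannot go below 0.0571. No pair of libraries held identical values. Gene lists and members were chosen with earlier results of these data known, and are described by counts and medians without a test. In 140 genes the deposited values still correlated with a component (r up to 0.369, above a tolerance of 1e-05).

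Genes were named by a rule: all that passed the threshold, the 12 largest differences in each direction among genes with an unadjusted p under 0.05, no overlap, a mean of at least 0, the same sign without the components, no component correlation and an established symbol, *Rest* and 5 injury factors, up to 4 members of each list with the smallest p and any whose role was needed, and for the comparisons with WT and day 7 the 5 smallest p in each direction. A few genes that meet this rule are not reported here. *Xist* and genes of chromosome Y were checked against the labelled sex. Positions are from GENCODE vM21 (GRCm38) and promoter sequences from RefSeq (GRCm38.p6). The alternatives were no components, only the 7 libraries, a batch or sex term, library weights, no trend, a mean of at least 0, only genes without component correlation, quantile normalization, a threshold of 0.05, and leaving out each library.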

Additional observations from a re-analysis of the deposited data

Results flagged for a closer look

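Of 58 pairs of a named gene and a group of 4 libraries that were examined, 4 held a library far from the other 3 by Dixon's test, of which chance gives about 1 in 20. *Rest* was -1.61 in REST cKO day 3 replicate 27, and the nearest of the other libraries was at -0.31. *Wiz* was 2.99 in the same library, with the next at 0.95. In WT sham, *Sept8* was -2.84 in replicate 10, with the next at 0.08, and *Erh* was 0.99 in replicate 17, with the next at 2.18. No gene passed the adjusted threshold for a difference of the response between genotypes with limma.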

How the results depend on the processing

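The count of 2 genes past the threshold at day 3 against sham depended on the settings. It was 0 without the components, with a sex term, without a variance trend, in the 7 libraries alone and at an adjusted p under 0.05, 1 with a batch term (*N4bp2l2*) and 1 with the mean filter (*N4bp2l2*). Quantile normalization also gave 2, *Fam32a* in place of *Rpl3-ps1*, and library weights gave 3. Leaving out 1 library gave 0 to 12, with 0 without sham replicate 6 or day 3 replicate 15 or 27, and 12 without sham replicate 23, among them *Ctss*, *Igha* and *Fam32a*. The adjusted p of *N4bp2l2* ranged from 0.00878 to 0.881 and that of *Rpl3-ps1* from 0.0602 to 0.784 over these alternatives. At an unadjusted p under 0.05 the 462 genes became 303 with the mean filter, which tests fewer genes, and 402 to 587 when a library was left out. Quantile normalization moved the split from 290 higher and 172 lower to 295 and 260.

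For the difference between genotypes the count stayed at 0 under every alternative run, and the 511 genes at an unadjusted p under 0.05 became 247 without the components and 425 to 626 when a library was left out. For day 7 against day 3 it was 0, or 0 to 2 when a library was left out, with 329 to 557 at an unadjusted p under 0.05. The cause of these changes was not tested. The genes named for their size, for passing the threshold or as injury factors kept the direction of their day 3 difference in every alternative run, but not its size. Those named in the comparisons with WT and day 7 kept the direction of that comparison alone. For the genes named for size, the selection fixed the direction without the components and in the 7 libraries alone. In the comparisons with WT and day 7 it fixed the direction without the components. Without sham replicate 6 the difference of *Ncf4* fell from 2.97 to 0.91, of *Sox11* from 2.89 to 1.38, of *Rest* from 1.48 to 0.58, of *Stat3* from 0.41 to 0.015 and of *Jun* from 0.33 to 0.066. Without the components the differences between genotypes were smaller, such as 2.04 for *Pid1* and -1.01 for *Foxp1*, and with a sex term the difference of *Mtss1* was -1.50.

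When a library was left out, the list medians ranged from -0.906 to -0.389 for neuronal REST targets (the latter without sham replicate 6), -0.754 to -0.44 for synaptic vesicle genes, -0.474 to -0.107 for tubulins and motors, 0.17 to 0.221 for ribosomal proteins and 0.236 to 0.385 for microglial markers. Quantile normalization moved the ribosomal median to 0.116. Without WT day 3 replicate 5, left out after seeing the data for its low values, the median difference between genotypes was 0.389 in place of 0.620 for the regeneration factors and -0.779 in place of -0.380 for the inhibitory neuron markers. No analysis paired by replicate was possible because the replicate numbers of the labels differ between all groups. Each batch held both groups, and the fit with a batch term is among the alternatives above.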

Other observations

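Of the sex genes, *Xist* separated the 7 libraries by labelled sex, and *Ddx3y*, *Uty*, *Kdm5d* and *Eif2s3y* of the Y chromosome did not. *Xist*, the RNA of the inactive X chromosome, was 1.66, 2.14 and 1.73 in the 3 day 3 libraries labelled female and -0.02 in the one labelled male, and -1.11, 0.63 and 1.07 in the male sham libraries. *Ddx3y*, a gene of the Y chromosome, was -0.79, -0.52 and 0.86 in the female day 3 libraries and 0.72 in the male one, and 1.08, -0.33 and -0.29 in sham. *Kdm5d*, also of the Y chromosome, was 0.23, 0.20 and 0.79 in the female day 3 libraries and 1.23 in the male one. It was -0.53, -0.60 and -0.51 in the male sham libraries, below every library labelled female, which is opposite to the labels. The deposited values were shifted gene by gene for batch and components, so that a low value does not show whether a read was present.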
